A study of Mus musculus with 26 samples.

Results

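Oligodendrocyte precursor genes were followed as 9 rows of the count table, the rows whose Ensembl mouse identifiers carry the symbols Olig1, Olig2, Nkx2-2, Cspg4, Lhfpl3, Gpr17, Neu4, Bcas1 and Enpp6, out of 54532 genes in all. The study drew astrocyte RNA from mouse eyes by immunoprecipitation (IP) and asked how retinal astrocytes differ from those of the optic nerve. There were 6 retina IP libraries, 7 IP libraries of the optic nerve head (ONH), where the axons leave the eye, 7 IP libraries of the myelinated optic nerve proper (ONP), and 6 libraries of retinal input, the RNA before precipitation. All came from untreated mice labelled Day 0, and the labels used here give no strain, age, or tag by which astrocyte RNA was pulled down. The 12 retinal libraries formed batch 2 together with replicate 7 of ONH and of ONP, and the other 12 nerve libraries formed batch 1. No input libraries of the nerve were analysed here, so the share of a nerve transcript that the precipitation brought down cannot be told from the share that came along unbound. Whether each library stands for its own animal is not stated in the labels, so the p-values measure spread among libraries, which may be technical.

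Oligodendrocytes, the cells that wrap axons of the central nervous system in myelin, arise from dividing precursors that also persist in the adult. A precursor carries the transcription factors Olig1, Olig2 and Nkx2-2 and the surface proteoglycan Cspg4 (NG2). On leaving the cell cycle it passes through a committed, premyelinating stage, at which Gpr17, Neu4, Bcas1 and Enpp6 are switched on, before the myelin genes take over. In the mouse the axons are bare in the retina and through the nerve head and become myelinated behind it, in the nerve proper.

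Promoters were taken from RefSeq (GRCm38.p6, 250 bases before to 50 after the transcription start) for 6 of the 9 genes, all but Gpr17, Olig1 and Bcas1. They were searched on both strands for the E-box letters CAGATG and CATATG, of the kind bound by basic helix-loop-helix factors such as Olig2, and for ACAAAG and ACAATG, core letters bound by Sox factors. Sequences are shown for the 3 that held a match and for Lhfpl3, the gene whose levels set it apart from the others below, with the matched letters in capitals.
Nkx2-2, chr2:147186353-147186652, minus strand: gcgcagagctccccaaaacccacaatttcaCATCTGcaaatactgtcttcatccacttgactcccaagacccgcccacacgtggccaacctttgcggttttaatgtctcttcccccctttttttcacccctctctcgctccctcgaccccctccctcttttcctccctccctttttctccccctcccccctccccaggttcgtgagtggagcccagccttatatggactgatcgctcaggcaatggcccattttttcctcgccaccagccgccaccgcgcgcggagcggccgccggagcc
Enpp6, chr8:46986637-46986936, plus strand: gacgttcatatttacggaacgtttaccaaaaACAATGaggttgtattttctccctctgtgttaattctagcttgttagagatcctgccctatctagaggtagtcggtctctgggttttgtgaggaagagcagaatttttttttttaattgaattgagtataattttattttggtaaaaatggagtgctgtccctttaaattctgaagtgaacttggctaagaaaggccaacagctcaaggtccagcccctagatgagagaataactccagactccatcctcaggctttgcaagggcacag
Olig2, chr16:91225300-91225599, plus strand: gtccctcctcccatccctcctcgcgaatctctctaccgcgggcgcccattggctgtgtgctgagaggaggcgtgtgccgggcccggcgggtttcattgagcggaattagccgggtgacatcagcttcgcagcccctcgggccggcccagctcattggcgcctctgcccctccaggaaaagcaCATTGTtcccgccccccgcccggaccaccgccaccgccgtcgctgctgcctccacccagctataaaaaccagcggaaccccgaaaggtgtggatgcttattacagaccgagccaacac
Lhfpl3, chr5:22745804-22746103, plus strand: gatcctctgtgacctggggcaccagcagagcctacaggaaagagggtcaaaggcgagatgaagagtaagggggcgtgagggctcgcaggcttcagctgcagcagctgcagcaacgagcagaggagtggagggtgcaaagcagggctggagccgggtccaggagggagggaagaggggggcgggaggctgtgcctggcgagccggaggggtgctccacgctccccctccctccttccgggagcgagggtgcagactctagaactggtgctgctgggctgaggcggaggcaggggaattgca
The Nkx2-2 window held 1 CAGATG, read on the opposite strand, and the Enpp6 and Olig2 windows held 1 ACAATG each, that of Olig2 on the opposite strand. Neu4, Cspg4 and Lhfpl3 held none of the 4 motifs. Among 32851 promoters of the same length, 17.2% held CAGATG, 3.91% CATATG, 18.7% ACAAAG and 12.6% ACAATG, and 42.2% held any of the 4, so 3 of 6 is close to the share among all promoters. A match is a run of letters only and was not tested for binding.

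Library totals ranged from 14703195 to 24966236 counts in retina IP, 14812762 to 26407745 in ONH IP, 14051088 to 27431026 in ONP IP and 11164619 to 18417001 in retina input. Levels are given as CPM, counts scaled to the library's total. Each of 10 astrocyte markers was found in every group, with summed levels of 7588 to 38241 CPM in retina IP, 7638 to 33036 in ONH IP, 12684 to 40367 in ONP IP and 4094 to 7041 in retina input. The retina IP libraries differed among themselves. Replicates 1, 5 and 6 had 7588 to 10227 CPM of astrocyte markers and 4820 to 5480 CPM of 8 ganglion cell genes, which summed to 4019 to 6404 CPM in retina input. Replicates 2, 3 and 4 had 24239 to 38241 CPM of the astrocyte markers and 923 to 2241 CPM of the ganglion cell genes. Of 14 myelin genes of mature oligodendrocytes, the summed level was 61.3 to 178 CPM in retina IP, 28561 to 72755 in ONH IP, 36508 to 119744 in ONP IP and 19.0 to 89.7 in retina input. Replicate 7 of ONH held 43036 CPM of 8 rod photoreceptor genes, against 34.6 to 652 CPM in the other 6 ONH libraries.

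Of the transcription factors Olig1 had the highest level and Nkx2-2 the lowest. Olig1 (ENSMUSG00000046160, mm10 chromosome 16, 91269772 to 91271933, plus strand), a basic helix-loop-helix factor needed for oligodendrocyte maturation, had 0 to 1.70 CPM in retina IP (median 0.474), 285 to 677 in ONH IP (median 478), 773 to 1206 in ONP IP (median 1006) and 0 to 0.218 in retina input (median 0). No ONH library reached the lowest ONP library, and no retinal library came near either. Its neighbour Olig2 (ENSMUSG00000039830, chromosome 16, 91225457 to 91228677, plus strand), which specifies the lineage, had 0 to 0.165 CPM in retina IP, 18.9 to 90.2 in ONH IP (median 31.4) and 22.7 to 131 in ONP IP (median 101). In retina input it had 0 counts of 90062237, a count that allows up to 0.0333 CPM. The ONH and ONP ranges of Olig2 overlapped over most of their length. Nkx2-2 (ENSMUSG00000027434, chromosome 2, 147177546 to 147194243, minus strand), a homeodomain factor that promotes differentiation, had 1 count over the 6 retina IP libraries, 0.606 to 3.38 CPM in ONH IP (median 1.68) and 2.09 to 12.03 in ONP IP (median 4.44). It had 0 counts in retina input. The highest ONP value of Nkx2-2, 12.03 CPM, belonged to replicate 7, and the next was 4.92 CPM.

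Of the surface proteins, Cspg4 (ENSMUSG00000032911, chromosome 9, 56865033 to 56899870, plus strand), the NG2 proteoglycan, which pericytes of vessel walls carry as well, had 0 to 1.36 CPM in retina IP (median 0.993), 10.1 to 26.6 in ONH IP (median 18.0), 28.9 to 48.7 in ONP IP (median 35.4) and 0 to 0.877 in retina input (median 0.0351). The ONH and ONP libraries did not overlap. The summed level of 10 pericyte markers, all of them found in each group, was 152 to 979 CPM in retina IP and 269 to 1387 in ONH IP. It was 264 to 671 CPM in ONP IP and 57.9 to 369 in retina input. Among them Rgs5 averaged 494 CPM in retina IP, 37.7 in ONH IP and 17.4 in ONP IP. In the tests described below, 6 of the 10 were lower and 1 higher in retina IP than in ONH IP (median log2 fold change −2.80). Over all genes 21.1% were lower and 12.7% higher. Against ONP IP, 7 were lower and 1 higher (median −2.71), beside 19.9% and 12.9% of all genes. The part of pericytes in the Cspg4 levels was not tested. Lhfpl3 (ENSMUSG00000106379, chromosome 5, 22746059 to 23275597, plus strand), a membrane protein of the tetraspan superfamily found in precursors of the brain, followed another order. It had 16.4 to 47.2 CPM in retina IP (median 26.8), 7.12 to 40.7 in ONH IP (median 14.1), 26.7 to 62.8 in ONP IP (median 32.2) and 37.0 to 57.2 in retina input (median 45.6). All 4 ranges of Lhfpl3 overlapped with at least another, and its highest group median was that of retina input.

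Among the committed-stage genes, Gpr17 (ENSMUSG00000052229, chromosome 18, 31942997 to 31949636, minus strand), a G protein-coupled receptor that holds back maturation, had 3 counts over the 6 retina IP libraries, 18.8 to 77.9 CPM in ONH IP (median 43.5), 95.8 to 185 in ONP IP (median 139) and 0 counts in retina input. Neu4 (ENSMUSG00000034000, chromosome 1, 94020451 to 94028334, plus strand), a sialidase, had 5 counts in retina IP, all in replicate 2, then 15.8 to 65.2 CPM in ONH IP (median 43.7), 88.6 to 142 in ONP IP (median 107) and 1 count in retina input. For both genes every ONH library lay under every ONP library. Bcas1 (ENSMUSG00000013523, chromosome 2, 170346991 to 170427845, minus strand), a cytosolic protein of cells about to myelinate, had 0.748 to 12.7 CPM in retina IP (median 2.17), 276 to 654 in ONH IP (median 373), 487 to 1349 in ONP IP (median 816) and 0 to 9.14 in retina input (median 0.858). Enpp6 (ENSMUSG00000038173, chromosome 8, 46986887 to 47096762, plus strand), a choline phosphodiesterase of newly forming oligodendrocytes, had 0.320 to 4.75 CPM in retina IP (median 0.545), 39.5 to 155 in ONH IP (median 103), 88.7 to 457 in ONP IP (median 272) and 0 to 0.607 in retina input (median 0). The ONH and ONP ranges of Bcas1 and Enpp6 overlapped.

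**Figure D1:**
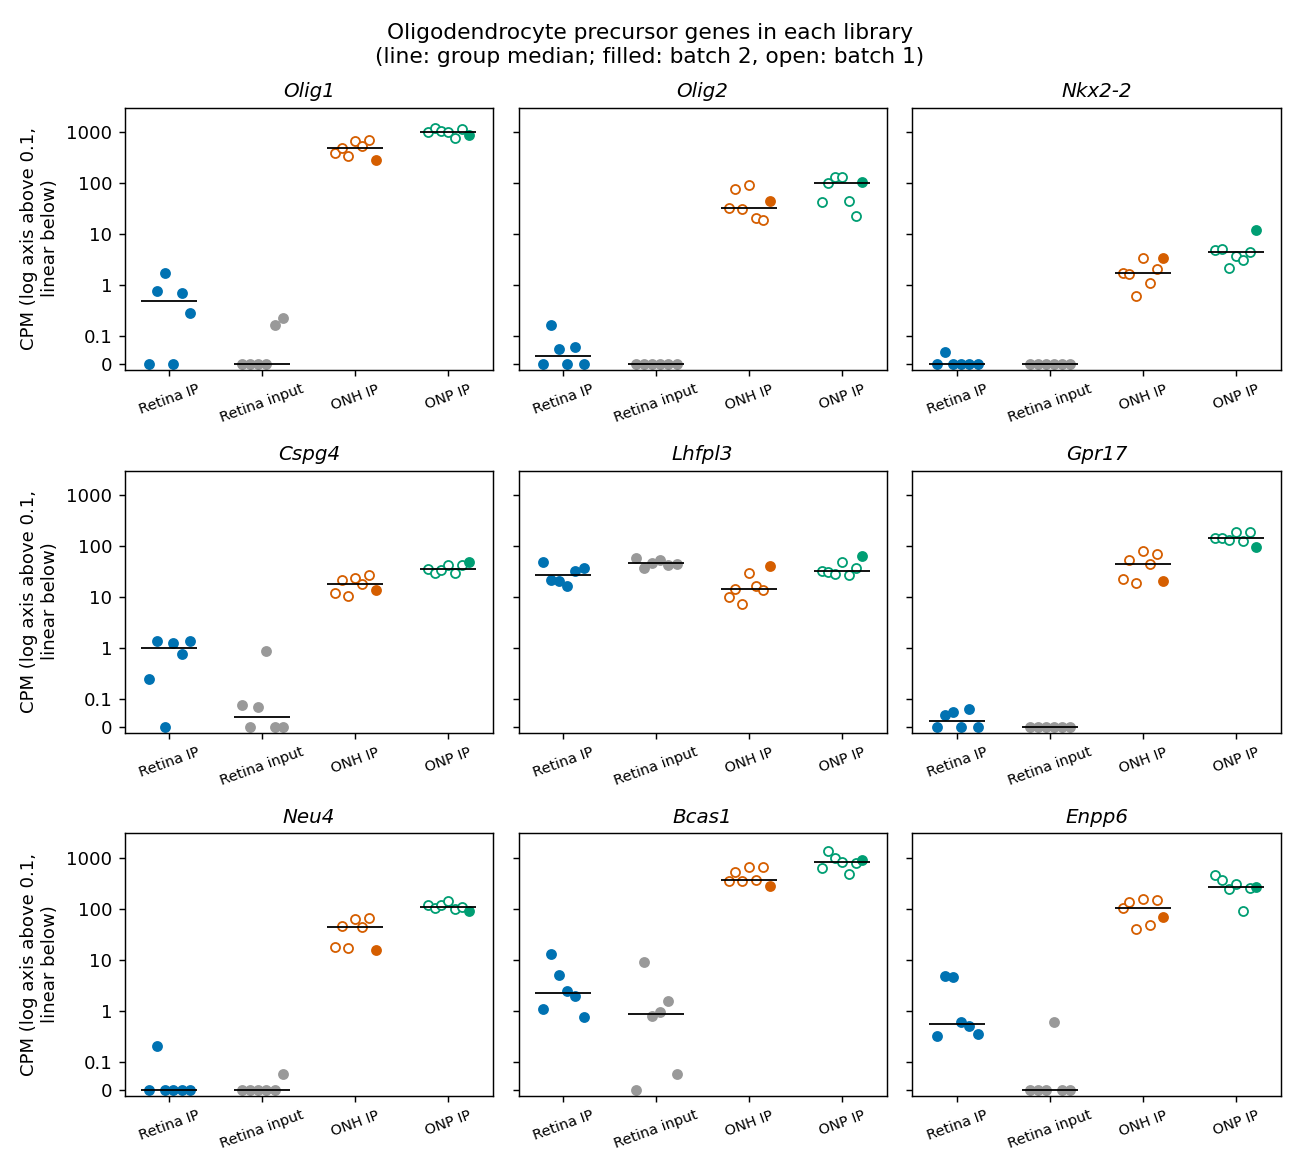
Level of each of the 9 genes in every library, in CPM on an axis that is logarithmic above 0.1 and linear below, with 1 point per library, the group median as a line, and batch 2 libraries filled. For 8 genes the nerve libraries lie far above the retinal ones, while Lhfpl3 runs from 7.12 to 62.8 CPM across all 4 groups.

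Divided by exon length, the genes fell into an order of level in which several neighbours could not be separated. In ONP IP the median was 465 CPM per kb for Olig1, 216 for Bcas1, 42.4 for Enpp6, 40.0 for Olig2, 26.8 for Gpr17, 23.0 for Neu4, 10.02 for Lhfpl3, 2.97 for Cspg4 and 1.54 for Nkx2-2. Olig1 lay apart from Bcas1, Bcas1 from Enpp6, and Lhfpl3 from Cspg4, and the other neighbours overlapped between libraries. In ONH IP the medians were 221 CPM per kb for Olig1, 98.8 for Bcas1, 16.0 for Enpp6, 12.4 for Olig2, 9.43 for Neu4, 8.38 for Gpr17, 4.38 for Lhfpl3, 1.51 for Cspg4 and 0.584 for Nkx2-2, and only Bcas1 and Enpp6 lay apart there. In retina IP, Lhfpl3 led with a median of 8.34 CPM per kb and did not overlap with the next gene, Bcas1, at 0.576. The counting of overlapping genes bears on some of these levels, since the sources used here do not say whether strand was used. The antisense gene Nkx2-2os averaged 2.22 CPM in ONH IP and 4.70 in ONP IP, where Nkx2-2 averaged 1.96 and 4.98, and Lims2, which lies over Gpr17 on the opposite strand, averaged 43.1 CPM in ONH IP and 91.1 in ONP IP.

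Against ONH IP, retina IP was lower for 8 of the 9 genes and higher for none, in edgeR's quasi-likelihood test with a batch term and Benjamini-Hochberg adjustment over 16355 genes (called at an adjusted p under 0.05). Over all genes tested, 21.1% were called lower and 12.7% higher. Of the 9 genes, Bcas1 and Lhfpl3 had at least 10 counts in all 6 retina IP libraries. The other 7 passed the low-count filter through the nerve libraries, and Gpr17, Neu4, Olig2 and Nkx2-2 had no retina IP library with 10 counts. The count of 8 is therefore a description only. The batch term rests on replicate 7 of ONH and of ONP, the only nerve libraries in batch 2. With that term 8 of 8 rod genes were called lower in retina IP than in ONH IP (median −4.26), and without it 0 were. Without it 8 of the 9 genes were again called lower, with a median over the 9 of −7.13 beside −8.18 with it. Olig1 had a log2 fold change of −9.30 (SE 0.704, adjusted p = 1.06e-08). For Olig2, with 6 counts in retina IP and 6110 in ONH IP, the ratio of retina IP to ONH IP, each count scaled to its group's total, was 0.00117 (95% Poisson interval 0.000428 to 0.00254, counting error only). The ratio was 0.00433 for Nkx2-2 (0.000109 to 0.0243), from 1 count in retina IP. It was 0.000595 for Gpr17 (0.000123 to 0.00174) and 0.00113 for Neu4 (0.000367 to 0.00264). Fewer precursor cells and less RNA per cell cannot be told apart in such bulk libraries.

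Bcas1, Enpp6 and Cspg4 had 518, 234 and 94 counts in retina IP. Bcas1 had a log2 fold change of −6.62 (SE 0.665, adjusted p = 4.32e-07). Enpp6, at −5.51 (SE 0.780, adjusted p = 2.99e-05), and Cspg4, at −4.53 (SE 0.605, adjusted p = 1.62e-05), had the smallest differences of the 8. All retina IP libraries lay below all ONH IP libraries for these 8 genes, as they did for 12.2% of all genes tested. In the 8 IP libraries of batch 2, where ONH has 1 library that is assumed to vary like the retinal ones, 7 of the 9 were lower, beside 3.62% of all genes, and the call of Cspg4 was lost (−3.89, adjusted p = 0.0888). Lhfpl3 averaged 29.1 ± 11.8 CPM in retina IP (SD, n = 6) and 18.7 ± 11.9 CPM in ONH IP (SD, n = 7). Its log2 fold change with the batch term was −0.31 (SE 0.438, edgeR adjusted p = 0.618). Without the batch term its sign turned, to 0.54 (adjusted p = 0.197).

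Against ONP IP, retina IP was lower for 9 of the 9 genes, where 19.9% of all genes tested were called lower and 12.9% higher. Here too 7 of the 9 passed the filter through the nerve, so the count is a description. Olig1 had a log2 fold change of −10.46 (SE 0.716, adjusted p = 2.01e-09). The retina IP to ONP IP ratio of scaled counts was 0.000652 for Olig2 (95% Poisson interval 0.000239 to 0.00142) and 0.00185 for Nkx2-2 (4.67e-05 to 0.0103). It was 0.000181 for Gpr17 (3.74e-05 to 0.000530) and 0.000383 for Neu4 (0.000124 to 0.000894). Bcas1 had a log2 fold change of −7.61 (SE 0.664, adjusted p = 5.21e-08), with Enpp6 at −7.11 (SE 0.791, adjusted p = 1.31e-06) and Cspg4 at −5.66 (SE 0.586, adjusted p = 5.06e-07). For the 8 genes other than Lhfpl3 the libraries did not overlap, as for 13.1% of all genes tested. Within batch 2, where ONP has 1 library that is assumed to vary like the retinal ones, these 8 were called lower, beside 4.71% of all genes.

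Lhfpl3 was again the weakest of the set. It averaged 29.1 ± 11.8 CPM in retina IP (SD, n = 6) and 37.8 ± 13.2 CPM in ONP IP (SD, n = 7), and its log2 fold change was −1.46 (SE 0.431, edgeR adjusted p = 0.0136). That call was lost without replicate 7 of ONH (−1.22, adjusted p = 0.0859), without replicate 7 of ONP (−1.74, adjusted p = 0.0658), without the batch term (−0.55, adjusted p = 0.186) and within batch 2 (−1.05, adjusted p = 0.227). Both replicate 7 libraries held the highest Lhfpl3 of their groups, 40.7 CPM in ONH IP and 62.8 CPM in ONP IP. They also held the most rod RNA of their groups, 43036 CPM over 8 rod genes in ONH and 532 CPM in ONP, where the other ONP libraries had 3.61 to 61.6. The part of retinal RNA or of the batch in these Lhfpl3 values was not tested.

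**Figure D2:**
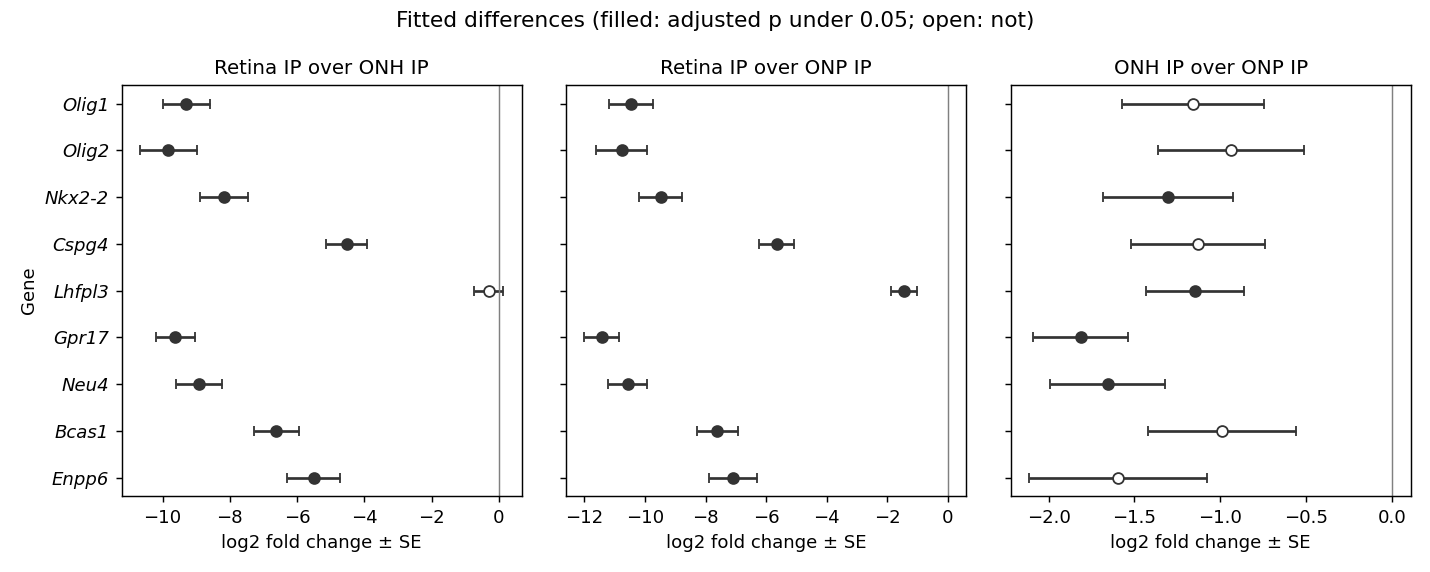
Fitted log2 fold change of each gene with its standard error in the 3 comparisons between regions, filled where the adjusted p was under 0.05, with a separate scale for each panel. The differences between retina and nerve run from −0.31 to −11.43, and those between ONH and ONP from −0.94 to −1.81. Where retina IP held 6 counts or fewer (Olig2, Neu4, Gpr17, Nkx2-2), the fitted value depends on the prior count.

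Between the nerve regions, ONH IP was lower than ONP IP for all 9 estimates, where 48.5% of all genes tested had an estimate under 0, and 4 of the 9 genes passed the test. Over all genes tested, 3.04% were called lower and 4.43% higher. Gpr17 averaged 43.5 ± 24.0 CPM in ONH IP and 143 ± 32.3 CPM in ONP IP (SD, n = 7 each), a log2 fold change of −1.81 (SE 0.276, edgeR adjusted p = 0.000697). Neu4 averaged 38.3 ± 21.6 CPM in ONH IP and 111 ± 17.2 CPM in ONP IP (SD, n = 7 each), at −1.66 (SE 0.335, adjusted p = 0.00604). Both calls held with each of the 20 IP libraries left out in turn. Lhfpl3, at −1.15 (SE 0.285, adjusted p = 0.0194), lost its call without replicate 1 of ONH (adjusted p = 0.0533) and without the batch term (adjusted p = 0.0583). Nkx2-2, at −1.30 (SE 0.379, adjusted p = 0.0408), lost its call in 11 of the 20 fits that left out a library. These were the fits without ONH replicates 1, 2, 3, 5, 6 and 7 and without ONP replicates 1, 2, 4, 6 and 7, with adjusted p up to 0.0949.

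The other 5 genes did not pass in that test. Enpp6 had an estimate of −1.60 (SE 0.519, adjusted p = 0.0659), Olig1 one of −1.16 (SE 0.414, adjusted p = 0.0921) and Cspg4 one of −1.13 (SE 0.390, adjusted p = 0.0822). Bcas1, at −0.99 (SE 0.431, adjusted p = 0.168), and Olig2, at −0.94 (SE 0.423, adjusted p = 0.184), were the smallest. The ranges did not overlap for 4 genes, Gpr17, Neu4, Cspg4 and Olig1, as for 0.691% of all genes tested. Without retina IP replicate 3, whose spread enters the shared estimate, 7 genes were called, and without ONH replicate 1, 2 were.

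Same-numbered ONH and ONP libraries deviated together from their group means, and a fit of the 14 nerve libraries with the replicate number as a block called 9 of the 9 genes lower in ONH IP, beside 11.1% of all genes. Adjusted p-values in that blocked fit ran from 0.000559 for Gpr17 to 0.0111 for Olig2. Blocked estimates were −1.94 for Gpr17 (SE 0.206), −1.80 for Neu4 (SE 0.272), −1.60 for Enpp6 (SE 0.229), −1.40 for Nkx2-2 (SE 0.285) and −1.23 for Lhfpl3 (SE 0.186). For Olig1 the block gave −1.18 (SE 0.166), for Cspg4 −1.17 (SE 0.194), for Bcas1 −0.96 (SE 0.199) and for Olig2 −0.91 (SE 0.206). In the 12 libraries of batch 1 alone, without the block, 8 of the 9 were lower, beside 8.01% of all genes, and Olig2 was the gene that did not pass (−0.88, adjusted p = 0.232).

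Each of the 9 genes was lower in the ONH library than in the ONP library of the same number in 7 of 7 pairs. Of the 14 myelin genes, Opalin and Mal were lower in 6 of 7 pairs and all others in 7 of 7. The share of all genes that did so was not counted. The median log2 ratio over the 9 genes was −1.56, −1.33, −1.94, −0.73, −0.86, −0.78 and −1.80 in pairs 1 to 7. Over the 14 myelin genes it was −1.34, −1.04, −1.72, −0.58, −0.22, −0.47 and −1.47 in the same pairs. Pairs 1, 3 and 7 had the lowest ratios in both lists, and the difference between the lists was not tested. Gpr17 ranged from −2.78 to −1.23 over the pairs and Neu4 from −2.80 to −0.71. Olig2 ranged from −2.09 in pair 3 to −0.26 in pair 6, with a median of −0.54.

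**Figure D3:**
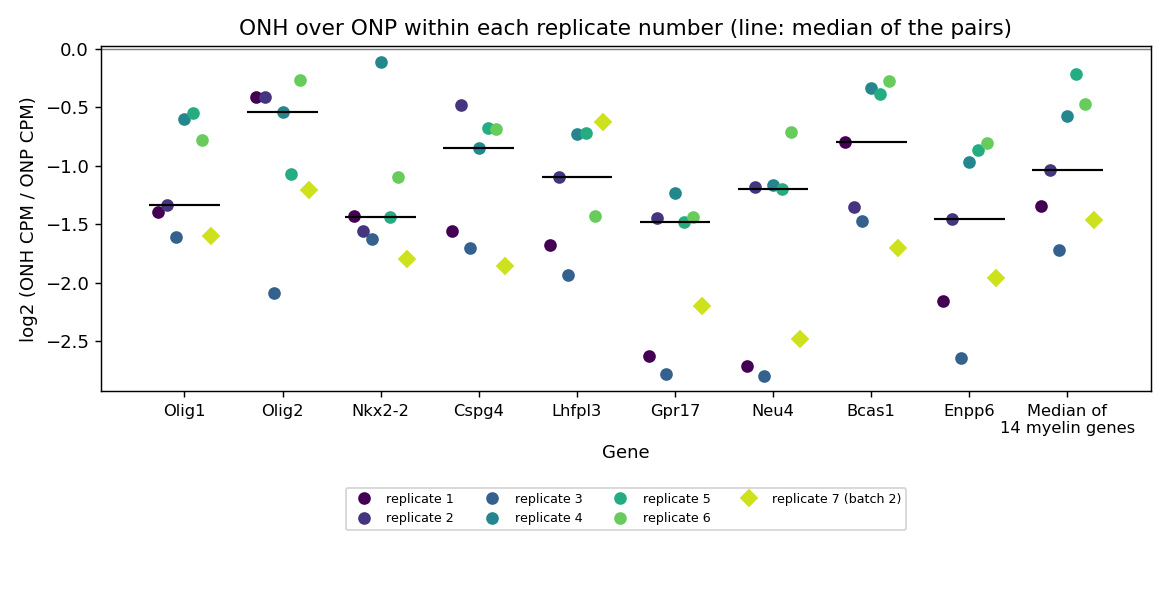
Log2 ratio of ONH CPM to ONP CPM within each replicate number for the 9 genes and for the median of 14 myelin genes, with 1 point per pair and the median of the pairs as a line. All points of the 9 genes lie under 0, and pairs 1, 3 and 7 have the lowest medians over the 9 genes, −1.56, −1.94 and −1.80.

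Precipitation over retinal input could be tested for 2 of the 9 genes, since 7 had too few counts in the 12 retinal libraries. None was called, and 0 of 15181 genes were called in either direction, which is 0% of them, with 1771 higher and 1585 lower at an unadjusted p under 0.05. DESeq2 called 969 genes higher and 1103 lower. The mean of Lhfpl3 was 29.1 ± 11.8 CPM over the retina IP libraries, against 46.5 ± 7.15 CPM over the input libraries (SD, n = 6 each), a log2 fold change of −0.77 (SE 0.275, unadjusted p = 0.0137, edgeR adjusted p = 0.119). The level was 32.0 to 47.2 CPM in retina IP replicates 1, 5 and 6, which had the lower astrocyte sums, and 16.4 to 21.6 CPM in replicates 2, 3 and 4, and the part of that split was not tested. DESeq2 called Lhfpl3 lower (−0.88, adjusted p = 0.0217), beside 7.27% of all genes. Bcas1 had a log2 fold change of 0.47 (SE 1.14, adjusted p = 0.868), which turned to −0.31 without retina IP replicate 2. No gene of the 9 had all its retina IP libraries below all its input libraries, as 2.19% of all genes tested had.

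Among the untested genes, Enpp6 had 234 counts in retina IP and 9 in retina input, a ratio of 19.95 after scaling to the group totals (95% Poisson interval 10.3 to 44.2, counting error only). Cspg4 had 94 counts in retina IP and 15 in retina input (ratio 4.81, 2.77 to 8.93), and Olig1 had 65 in retina IP and 7 in retina input (ratio 7.13, 3.27 to 18.4). Of the 234 Enpp6 counts most lay in replicates 2 and 3, at 4.75 and 4.63 CPM, while the other 4 libraries had 0.320 to 0.597. Replicates 2 and 3 were also among the 3 retina IP libraries with the highest astrocyte sums. The remaining library of those 3, replicate 4, had the highest sum, 38241 CPM, but 0.597 CPM of Enpp6. The part of astrocyte content in the Enpp6 values was not tested. A fit of all 26 libraries tested 9 of the 9 genes, and called 2 higher in retina IP than in input and 1 lower. The genes untested above passed the low-count filter there through the nerve libraries. Each had 10 counts in at most 4 retina IP libraries and 1 retina input library, so calls among them are a description only. The lower gene was Lhfpl3 (−0.85, edgeR adjusted p = 0.0451). Of the 17173 genes in that fit, 1419 were called higher and 1452, or 8.46%, lower. The highest of these retina IP levels, 4.75 CPM of Enpp6, was under the lowest ONH library of that gene, at 39.5 CPM. Amacrine and bipolar cell genes, 10 in all, summed to 316 to 1302 CPM in retina IP, 44.6 to 429 in ONH IP, 70.9 to 181 in ONP IP and 347 to 1120 in retina input, and their part in the retinal Lhfpl3 was not tested.

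Within the nerve the 9 genes did not all vary together. Over the 12 libraries of batch 1, as deviations of log2(CPM + 1) from the group mean, Gpr17 and Cspg4 had r = 0.96 (rho = 0.97, and r = 0.96 without the 2 libraries farthest from the median of Gpr17). Gpr17 and Neu4 had r = 0.95 (rho = 0.87, r = 0.91 without the 2 farthest), and Gpr17 and Lhfpl3 r = 0.86 (rho = 0.86, r = 0.70). Olig1 followed Gpr17 at r = 0.88 (rho = 0.76, r = 0.78) and Bcas1 at r = 0.78 (rho = 0.82, r = 0.76). Olig2 stood apart, with r of 0.05 to 0.49 to the other 8 genes and of 0.10 to Olig1. These 36 pairs share their libraries, depth and scaling, and the values are a description without a test.

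The separate course of Olig2 showed in its level beside Olig1. Olig2 CPM was 2.78% to 15.9% of Olig1 CPM in ONH IP and 1.95% to 13.1% in ONP IP. Replicate 6 had the lowest percentage in both regions. Replicates 5 and 6 held 20.5 and 18.9 CPM of Olig2 in ONH IP, where their Olig1, at 528 and 677 CPM, was among the highest of the group. In ONP IP they held 43.2 and 22.7 CPM of Olig2. There the Olig1 of replicate 5, at 773 CPM, was the lowest of the group, while replicate 6 had 1161 CPM.

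**Figure D4:**
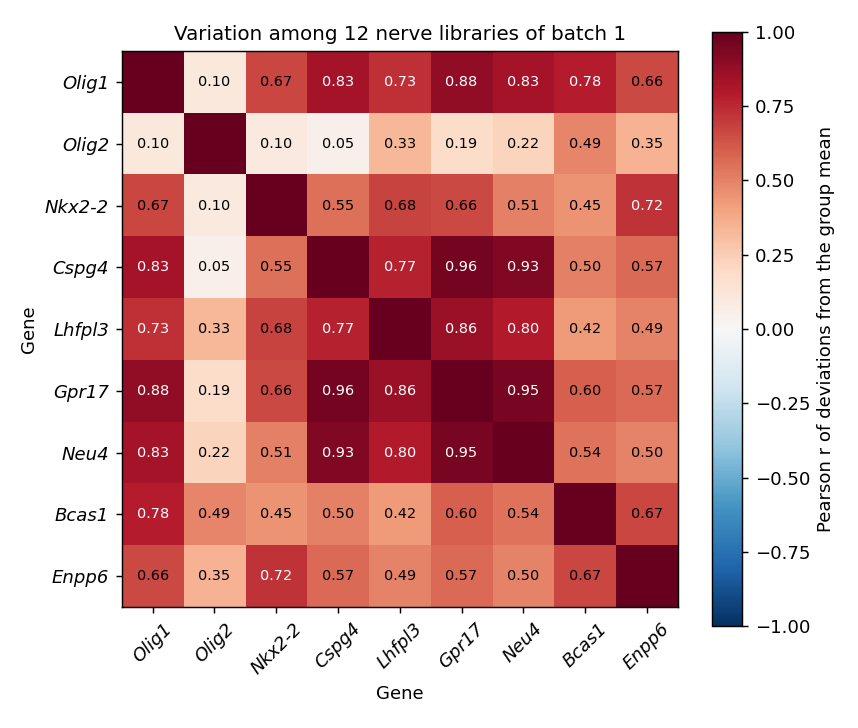
Pearson correlation between the 9 genes over the 12 nerve libraries of batch 1, computed on log2(CPM + 1) after subtracting the mean of each region. Gpr17, Neu4 and Cspg4 form the darkest block, at 0.93 to 0.96, and the row of Olig2 is pale throughout, at 0.05 to 0.49.

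Across all 26 libraries, the genes most like each member were found among 11067 genes averaging at least 10 CPM in some group, by Pearson r of log2(CPM + 1). Retinal and nerve libraries lie far apart for 8 of the 9 members, so that such an r describes the gap between them as much as variation within the nerve. Fa2h, which hydroxylates the fatty acids of myelin lipids, led for Gpr17 (r = 0.993), followed by the homeobox gene Dbx2 (0.992) and Pllp, which encodes a myelin proteolipid (0.992). The same 3 genes led for Neu4, Dbx2 first (0.994). For Cspg4 they were Pllp (0.984), Rnf13 (0.983) and Fa2h (0.982). Olig1 was most like Galnt6, Opalin and the myelin-associated glycoprotein gene Mag (0.996, 0.996 and 0.995). Bcas1 was like the myelin genes Mobp and Mog (0.989 and 0.987), and Enpp6 like Aspa, Cnp and Nipal4 (0.992, 0.987 and 0.986). Olig2 had Cyp2j12, Hapln2 and Slc44a1 nearest (0.985, 0.984 and 0.983), and Nkx2-2 3 predicted genes, Gm19439, Gm32122 and Gm21984 (0.965, 0.964 and 0.963). No gene came close to Lhfpl3, for which Ttll7 (0.836), Pde1c (0.810) and Rtn4 (0.795) were nearest.

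Further genes of the lineage were counted from lists that are not independent of earlier results on these libraries. Of 12 other precursor genes, 7 were lower and 1 higher in retina IP than in ONH IP, with a median log2 fold change of −1.63 beside −0.13 over all genes tested. Sox10, the factor that drives myelin genes, had 12 counts in retina IP and 0 to 0.160 CPM there, against 17.5 to 75.6 CPM in ONH IP (−9.46, SE 0.476, adjusted p = 5.65e-11). Ptprz1, a receptor phosphatase of precursors and astrocytes, was lower at −4.16 (adjusted p = 2.05e-06), and the matrix gene Matn4 at −6.07 (adjusted p = 3.76e-06). The higher gene was Pdgfra, the platelet-derived growth factor receptor by which precursors divide and which immature retinal astrocytes also use. It had 169.9 to 248 CPM in retina IP replicates 1, 5 and 6 and 1179 to 1527 CPM in replicates 2, 3 and 4, against 18.4 to 61.3 CPM in ONH IP (4.84, SE 0.869, adjusted p = 0.000317). Against ONP IP, 9 of the 12 were lower and 1, again Pdgfra, higher (3.94, adjusted p = 0.000916), with a median of −2.64 beside −0.10 over all genes.

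Of 12 genes of the committed stage, 6 were lower and none higher in retina IP than in ONH IP (median −1.12), beside 21.1% and 12.7% of all genes tested. Against ONP IP, 8 were lower and none higher (median −2.05), beside 19.9% and 12.9% of all genes tested. The transcription factors Nkx6-2 (−8.07, adjusted p = 1.96e-09) and Myrf (−6.48, adjusted p = 7.66e-07), which activates myelin genes, and the ligand Bmp4 (−6.59, adjusted p = 8.38e-08) had the smallest adjusted p against ONH IP. Over the 6 retina IP libraries Nkx6-2 had 72 counts, Myrf 76 and Bmp4 27, so these fold changes rest on few retinal counts. Of 10 signals and brakes of the lineage, 3 were lower and 2 higher in retina IP than in ONH IP (median −0.06). The lower ones were the growth factor Pdgfa (−3.56, adjusted p = 3.78e-09), the Notch ligand Jag1 (−3.50, adjusted p = 0.00022) and the inhibitor Id4 (−2.46, adjusted p = 0.0113). The higher ones were the muscarinic receptor Chrm1 (3.90, adjusted p = 0.00612) and the morphogen Shh (4.36, adjusted p = 0.0318). Shh had 9 counts in ONH IP, with 5 of 7 libraries at 0, so its call is a description only. Against ONP IP, 4 were lower, Pdgfa and Jag1 among them with Adgrg1 (−2.13, adjusted p = 0.000629), and 1, Chrm1, was higher (3.57, adjusted p = 0.0153). Jag1, at −2.66 in that fit, averaged 2.39 CPM in retina IP and 3.53 in ONP IP (SD 1.48 and 1.47). In ONH IP it had a median of 5.77 CPM and a highest library of 43.2. Without the batch term, which rests on replicate 7 of ONH and of ONP, 3 of the 10 were lower than in ONP IP and 2 higher. All 14 myelin genes were lower in retina IP than in ONH IP (median −9.29) and than in ONP IP (median −10.26).

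Between ONH IP and ONP IP, 4 of the 12 precursor genes were lower and none higher, with a median of −0.81 beside 0.02 over all genes tested and −1.16 over the 9. They included Sox10 (−1.50, SE 0.256, adjusted p = 0.00174), its relative Sox8 (−1.65, SE 0.387, adjusted p = 0.0151) and the matrix glycoprotein gene Tnr (−1.35, SE 0.341, adjusted p = 0.0214). Of the committed-stage genes 2 of 12 were lower, the deacetylase Sirt2 (−0.69, adjusted p = 0.0277) and the kinase Fyn (−0.74, adjusted p = 0.0461), both of which take part in forming myelin. Of the signals and brakes 1 of 10 was lower, Adgrg1 (−0.99, adjusted p = 0.042), an adhesion receptor that keeps precursors dividing. Of the myelin genes 2 of 14 were lower, Gjc3 (−1.20, adjusted p = 0.018) and Cnp (−0.95, adjusted p = 0.0263), with a median of −1.02. With the replicate block these counts became 7 of 12 precursor genes, 7 of 12 committed-stage genes, 2 of 8 signals and brakes that were tested and 14 of 14 myelin genes, all lower in ONH IP. None of 10 astrocyte markers was called between the regions without the block (median −0.02), and 1 was higher and 2 lower with it. Of 8 rod genes 8 were higher in ONH IP (median 4.17), and of 10 pericyte genes 1 was, Ndufa4l2 (2.14, adjusted p = 0.0292). Of 10 amacrine and bipolar cell genes 6 were higher and 1 lower, while 4 could be tested with the block and in batch 1 alone, where 1 was higher and 1 lower. None of 10 microglia genes was called without the block and 4 were lower with it, with summed levels of 268 to 2218 CPM in ONH IP and 349 to 3382 CPM in ONP IP. Their part in the values of the 9 genes was not tested.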

How the data were processed

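RNA of 26 mouse libraries was measured by RNA-seq. Per the labels' protocols, polyadenylated RNA was captured with oligo-dT and made into libraries with an ultra-low input kit. Per the submitters' processing notes, Salmon 1.6.0 and mm10 were used; the strand setting is not given in the sources used here. The deposited table holds the authors' estimated counts per gene for 54532 genes, already whole numbers. Symbols came from a reference list of gene names, or from the GENCODE M21 annotation where that list had none (54495 genes with a symbol). Coordinates and exon lengths came from GENCODE M21, and promoters from RefSeq (GRCm38.p6). No column of per-sample values was left without a sample.

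Differences were tested on the counts with edgeR 4.0.16 in R 4.3.3 (TMM, filterByExpr at min.count 10 and min.total.count 15, quasi-likelihood F test, Benjamini-Hochberg over all genes tested). Retina IP against input was fitted on 12 libraries, and the 3 comparisons between regions on the 20 IP libraries with batch as a term. CPM was computed on total counts without TMM. Ratios within a pair used a pseudocount of 0.1 CPM, and correlations log2(CPM + 1). The tests were also run on simulated data, and as the outcome is not given here, no conclusion is drawn from that run.

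Between ONH and ONP, same-numbered libraries of batch 1 correlated in their deviations from the group means in all 6 pairs (r from 0.16 to 0.49 over 9792 genes), so blocked values stand beside the results they change. The numbers come from the labels, which do not say what they stand for.

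Members and lists were chosen with earlier results of these data known. Named genes were all 9 members, up to 3 called genes per direction of each lineage list and up to 2 of each other list by smallest adjusted p, and the 3 genes of highest r per member. Not every gene that met these rules is named in each comparison, and Rgs5 and Mal are named outside them. A gene that met these rules is not reported here. Alternatives were a replicate block, omission of the batch term, each batch alone where it holds both groups, DESeq2 1.42.0, RLE scaling, testing without the low-count filter, a fit of all 26 libraries, and leaving out each library. A list of 5 Schwann cell genes, 8 endothelial, 5 fibroblast, 10 microglia and 8 ganglion cell genes was also counted. In retina IP against ONH IP, 0 of 5, 6 of 8, 5 of 5, 9 of 10 and 0 of 8 of these were lower, and in ONH IP against ONP IP none was lower without the block, while 4 microglia genes were lower with it; 2 of the ganglion cell genes were higher without the block, and 3 fibroblast and 3 ganglion cell genes with it. The 8 ganglion cell genes were higher in retina IP. Figures were drawn with matplotlib 3.10.9.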

Additional observations from a re-analysis of the deposited data

Results flagged for a closer look

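Of 30 sets of library values, 1 gene in 1 group each, 7 had a library at an end of its group that stood apart by Dixon's test. The rate of 1 in 20 at which the test is set holds for normally distributed values, and several retinal sets lie near 0 counts. Where all other libraries were at 0, the remaining library stands apart whatever its value. The 7 are therefore a description only. In the nerve this was Nkx2-2 in ONP IP replicate 7, at 12.03 CPM, with the next library at 4.92 CPM. In retina IP, replicate 2 stood apart for 3 genes, with Bcas1 at 12.7 CPM (next 5.06), Neu4 at 0.206 CPM (all others at 0) and Olig2 at 0.165 CPM (next 0.0615). In retina input, replicate 4 stood apart for Cspg4, at 0.877 CPM (next 0.0766), and for Enpp6, at 0.607 CPM (all others at 0). Bcas1 stood apart in retina input replicate 2, at 9.14 CPM (next 1.52).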

How the results depend on the processing

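Depth limits the retinal values: in 6 libraries, 3 counts correspond to 0.0256 CPM (retina IP) and 0.0333 CPM (input), and differences under such levels were not detectable. In retina IP against input, members called were 0, but 1 (lower) with DESeq2 and 3 (2 higher, 1 lower) with all 26 libraries. Genes called higher and lower were 0 and 0, but 152 and 41 without the low-count filter, 969 and 1103 with DESeq2 and 1419 and 1452 with all 26 libraries. Bcas1 turned to −0.31 without retina IP replicate 2 and reached 2.62 without retina input replicate 2. The replicate block left Lhfpl3 at −0.83 (adjusted p = 0.204) and Bcas1 at 1.91 (adjusted p = 0.278). Same-numbered retina IP and input libraries correlated at −0.16 to 0.24, and 3 of 6 correlated best with their own number, so these share only a number.

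In retina IP against ONH IP, 8 members were called in every fit but that of batch 2 (7) and that with the block in place of batch, where Lhfpl3 was added as higher (0.85, adjusted p = 0.0234; it was 0.54 without the batch term). Genes called higher were 2080, but 1242 with all 26 libraries, 4601 with the block in place of batch, 3871 without the batch term and 121 in batch 2. Those called lower were 3452, but 697 in batch 2. In retina IP against ONP IP, genes called higher were 2116, but 4808 with the block in place of batch, 4225 without the batch term and 783 in batch 2. Those called lower were 3255, but 4891 with that block and 907 in batch 2. Lhfpl3 lost its call with that block (−0.35, adjusted p = 0.309).

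In ONH IP against ONP IP, members called were 4, but 6 with DESeq2, 3 without the low-count filter, 3 with all 26 libraries, 9 with the replicate block, 8 in batch 1 and 2 without the batch term. Genes called higher were 725, but 1150 with DESeq2, 385 with all 26 libraries, 1481 with the block and 1264 in batch 1. Those called lower were 498, but 320 without the low-count filter, 891 with DESeq2, 126 with all 26 libraries, 1637 with the block and 1181 in batch 1. The cause of these changes was not tested.

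Leaving out 1 library at a time, members called ranged from 0 to 0 for retina IP against input, 8 to 8 against ONH IP, 8 to 9 against ONP IP and 2 to 7 between ONH IP and ONP IP. Genes called higher ranged from 0 to 341, 722 to 2442, 567 to 2436 and 409 to 869 in that order, and lower from 0 to 40, 2262 to 3648, 1588 to 3380 and 192 to 697. The 341 and 40 came without retina IP replicate 1, the 722, 567, 2262 and 1588 without ONP replicate 7, and the 409 and 192 without ONH replicate 1. A block and a batch term together could not be estimated for retina against nerve.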
